A study of Mus musculus with 28 samples.

Results

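Choroid plexus genes were measured in RNA from amygdala punches of 28 adult female C57BL6/J mice. The 10 genes, Ttr, Kl, Folr1, Clic6, Aqp1, Otx2, Sostdc1, Slc4a5, F5 and Prlr, were taken by symbol from a list of genes of the choroid plexus epithelium. All 10 were among the 49477 genes present in the count tables of both batches, and all 10 were among the 16266 genes averaging 10 counts or more per mouse, which are called all genes tested here. The 10 Water mice had no access to alcohol. The 9 Acute mice had a single access to a 20% ethanol solution, and the 9 Chronic mice had access to 20% ethanol on every other day for a month. The mice came in 2 batches. In the first batch there were 4 Water mice, 4 Acute mice and 3 Chronic mice. In the second there were 6, 5 and 6 in the same order. The punches were aimed at the central and basolateral nuclei, and 1 library was made from each mouse. Total counts ranged from 20004380 to 22569562 per mouse.

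The choroid plexus is a folded sheet of epithelium on a core of vessels and stroma. It hangs in the brain ventricles, makes the cerebrospinal fluid, and part of it lies near the amygdala in the temporal horn of the lateral ventricle. Its epithelial cells are joined by tight junctions, carry pumps and channels that move ions and water, and release carrier proteins into the fluid. The amygdala itself is nervous tissue and holds no choroid plexus. Neuron genes listed for the amygdala were present in every mouse, though not all are particular to it. Slc17a7, the vesicular glutamate transporter of cortical-type excitatory neurons, lay between 792.3 and 1573.4 CPM, the count scaled to the library's TMM-normalised size. Sst, encoding somatostatin, lay between 208.4 and 296.2 CPM, and Prkcd, a kinase that marks a class of central amygdala neurons, between 22.7 and 49.8 CPM.

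By role, 3 of the 10 genes encode secreted proteins. Ttr (transthyretin, ENSMUSG00000061808; chromosome 18, 20665280 to 20674321, plus strand) carries thyroxine and retinol-binding protein. F5 (coagulation factor V, ENSMUSG00000026579; chromosome 1, 164151838 to 164220277, plus) is a clotting cofactor. Sostdc1 (chromosome 12, 36314139 to 36318452, plus) encodes a secreted antagonist of BMP and Wnt signals. Kl (klotho; chromosome 5, 150952607 to 150993817, plus) encodes a membrane co-receptor for FGF23 that is also shed. Folr1 (chromosome 7, 101858331 to 101870788, minus) encodes the folate receptor that carries folate across the epithelium, and Prlr (chromosome 15, 10177238 to 10349180, plus) the prolactin receptor. Transport genes were Aqp1 (chromosome 6, 55336432 to 55348555, plus), a water channel, Slc4a5 (chromosome 6, 83219828 to 83304945, plus), a sodium bicarbonate cotransporter, and Clic6 (chromosome 16, 92485736 to 92541243, plus), a member of the intracellular chloride channel family. Otx2 (chromosome 14, 48657677 to 48673819, minus) encodes a homeodomain transcription factor that the choroid plexus needs.

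Positions are those of GENCODE M21 on GRCm38, and each gene is protein-coding. Exons of Otx2 overlap those of Otx2os1 on the other strand and Gm49154 on the same strand, exons of F5 overlap Gm16548 on the other strand, and exons of Prlr overlap Gm21973 on the same strand, so counts of these 3 genes could in part be shared with their neighbours.

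Promoter sequence was looked at because the 10 genes moved together, as described further on. RefSeq promoters (assembly GRCm38.p6) were taken for 6 of the 10, and none was taken for Ttr, Folr1, Clic6 and Sostdc1. The 250 bases upstream of each start were searched on both strands for TAATCC, the core letters bound by Otx-type homeodomains, whose reverse complement is GGATTA. It was found in 1 of 11 windows of these genes, an Otx2 promoter. Among all 32851 promoter windows of that length, 6.25% held it, so 1 of 11 is near what promoters at large hold. The Otx2 window is shown because it held the match, and Kl as a gene that had at least 93 counts in each mouse. Slc4a5 is shown for having the highest Pearson's r with Ttr over all mice. Each is written 5′ to 3′ on the strand of the gene, with GGATTA in capitals.
Otx2, chr14:48665110-48665359, minus strand: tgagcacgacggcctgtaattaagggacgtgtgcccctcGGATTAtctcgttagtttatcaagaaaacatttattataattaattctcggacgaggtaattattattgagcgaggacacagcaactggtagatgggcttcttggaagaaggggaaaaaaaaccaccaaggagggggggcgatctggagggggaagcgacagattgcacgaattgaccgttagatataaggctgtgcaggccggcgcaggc
Kl, chr5:150952357-150952606, plus strand: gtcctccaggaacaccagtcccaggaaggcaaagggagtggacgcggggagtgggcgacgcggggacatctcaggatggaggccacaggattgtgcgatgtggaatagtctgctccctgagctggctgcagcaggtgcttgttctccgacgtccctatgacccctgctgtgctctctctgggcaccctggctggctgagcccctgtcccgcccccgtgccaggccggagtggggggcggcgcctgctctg
Slc4a5, chr6:83237125-83237374, plus strand: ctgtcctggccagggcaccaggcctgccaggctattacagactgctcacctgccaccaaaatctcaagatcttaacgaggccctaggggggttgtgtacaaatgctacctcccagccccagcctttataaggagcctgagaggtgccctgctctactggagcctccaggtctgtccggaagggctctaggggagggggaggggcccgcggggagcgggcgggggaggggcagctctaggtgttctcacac

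Ttr was by far the most abundant of the 10. Per kilobase of exon it averaged 932.1 ± 968.3 CPM per kb (SD, n = 28), and Clic6 came next at 10 ± 8.37 CPM per kb. Sostdc1 followed at 7.74 ± 5.94, Kl at 6.82 ± 6.24, Folr1 at 4.22 ± 4.33, Aqp1 at 3.08 ± 3.23, F5 at 2.85 ± 2.75, Prlr at 2.49 ± 2.03, Slc4a5 at 2.03 ± 2.05 and Otx2 at 2.02 ± 2.11 CPM per kb. The median over all genes tested was 4.04 CPM per kb. Below Ttr, neighbours in this order lay well within their SDs. Within single mice some of the order held, with Kl above Folr1 in 28 of 28 mice, while F5 was above Prlr in 14 of 28 and Slc4a5 above Otx2 in 16 of 28. Ttr was above Clic6 in 25 of 28 mice.

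The count of Ttr differed by orders of magnitude between mice of the same group. In the first batch, Water mice had 52772, 8974, 81334 and 46269 counts. Acute mice of that batch had 73631, 21771, 17044 and 21569 counts, and Chronic mice had 41453, 29910 and 88542 counts. All 11 mice of the batch thus expressed Ttr strongly, from 434.8 to 3902.7 CPM, and the 3 groups overlapped.

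In the second batch, Acute mice had 56, 17233, 15276, 50 and 34988 counts of Ttr. The 6 Water mice ranged from 250 to 36438 counts with a median of 2962, and the 6 Chronic mice from 5 to 39866 counts with a median of 3249. Acute and Chronic thus each held 2 mice with at most 56 counts, the lowest Water mouse had 250, and each group held a mouse with at least 34988. Over the batch Ttr ran from 0.258 to 1962.2 CPM, a 7619-fold range against 8.98-fold in the first batch. Without the lowest mouse of each, Chronic 6 with 5 counts and Water 41 with 8974, the ranges were 2473.7-fold and 5.11-fold. In a punch, fewer choroid plexus cells and less RNA per cell cannot be told apart.

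**Figure D1:**
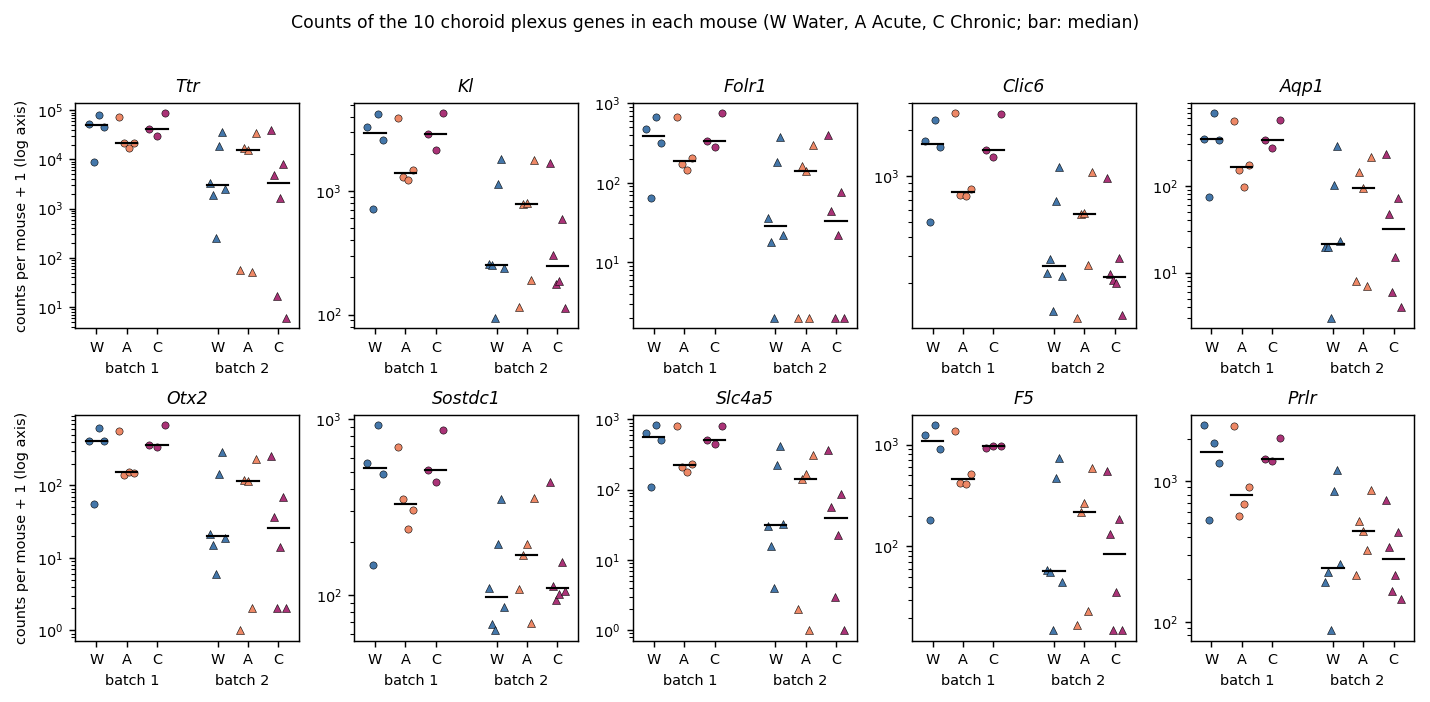
Counts plus 1 of each of the 10 genes (log axis, scaled for each gene) in every mouse, by group and batch, with circles for batch 1, triangles for batch 2 and a bar at the median. In batch 1 Ttr sits between 8974 and 88542 counts, and in batch 2 each group spans from at most 250 counts to at least 34988.

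Slc4a5 showed the same layout at a lower level. First-batch counts were 637, 108, 826 and 499 in Water mice, 811, 212, 180 and 228 in Acute mice, and 499, 451 and 794 in Chronic mice. Second-batch Acute mice had 1, 143, 168, 0 and 313 counts. The 6 Water mice of that batch ran from 3 to 418 counts with a median of 30, and the 6 Chronic mice from 0 to 368 with a median of 38.5. High and low mice were found in all 3 groups. A count of 0 allows up to 3 counts, which is 0.154 CPM in Acute mouse 4 and 0.155 CPM in Chronic mouse 6. Such limits cover counting error only, since reads were not tagged by molecule.

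Otx2, the transcription factor, went from 55 to 676 counts over the first batch. Its second-batch Acute counts were 0, 117, 115, 1 and 233, the Water mice ran from 5 to 285 counts with a median of 19, and the Chronic mice from 1 to 250 with a median of 24.5. The mice that were low or high for Otx2 were those low or high for Ttr. Folr1 had 1 count in each of 5 second-batch mice, Acute 1, Acute 4, Chronic 3, Chronic 6 and Water 3, and 394 counts in Chronic mouse 1. In the first batch Folr1 lay between 63 and 757 counts. Aqp1 fell in the same range, from 2 to 285 counts in the second batch and from 73 to 693 in the first.

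Kl kept a level in every mouse. First-batch counts were 3276, 721, 4211 and 2591 in Water mice, 3862, 1293, 1215 and 1489 in Acute mice, and 2867, 2128 and 4281 in Chronic mice. Second-batch Acute mice had 114, 786, 806, 190 and 1773 counts, Water mice 93 to 1808 with a median of 253.5, and Chronic mice 112 to 1694 with a median of 245.5. The lowest mouse, Water 3, still had 4.8 CPM, and again no group stood apart.

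Clic6, Sostdc1 and Prlr behaved in the same way as Kl. In the 4 mice with the fewest Ttr counts, Acute 1 with 56, Acute 4 with 50, Chronic 3 with 16 and Chronic 6 with 5, Prlr had 213, 321, 165 and 144 counts. Clic6 had 116, 260, 206 and 121 counts in those mice, and Sostdc1 had 107, 68, 93 and 105. F5 was intermediate, with 16, 22, 14 and 14 counts in the same mice. The 4 genes Kl, Clic6, Sostdc1 and Prlr thus had a remainder of at least 68 counts where Folr1, Otx2 and Slc4a5 had at most 2. Whether the remainder came from other cells of the punch was not tested.

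Spread between mice was measured as the SD of log2 CPM (prior count of 2) around the mean of each batch and group. The SD of Ttr was 3.43, the largest of all 16266 genes tested. Slc4a5 ranked 13th at 2.4, Folr1 14th at 2.38 and Otx2 20th at 2.21, followed by Aqp1 at 1.86, F5 at 1.81, Kl at 1.33, Clic6 at 1.02, Prlr at 0.987 and Sostdc1 at 0.862. The median of the 10 genes was 1.83 against 0.138 over all genes tested. Among the 100 genes of largest SD, which are 0.615% of genes tested, were 6 of the 10. The second batch carried most of this. Its SDs ran from 0.895 for Sostdc1 to 4.22 for Ttr, and those of the first batch from 0.802 for Sostdc1 to 1.13 for Folr1. Within the first batch alone, where the median over all genes tested was 0.135, 0 of the 10 were among the 100 largest. Of the variance of Ttr, 29.3% lay between batches, 4.08% between groups within a batch and 66.6% between mice of 1 group and batch. Over the 10 genes the share between batches ran from that 29.3% to 47.4% for Kl (median 41.2%, against 15.5% over all genes tested), and the share between mice from 48.4% for Clic6 to that 66.6% (median 56.8%, against 67.5%).

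**Figure D2:**
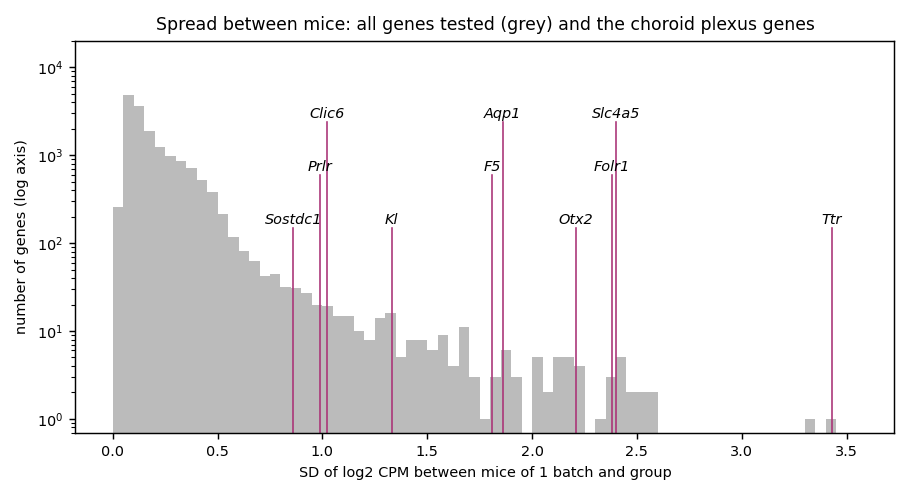
Number of genes (log axis) by the SD of log2 CPM between mice of 1 batch and group, in grey for the 16266 genes tested, with the 10 choroid plexus genes marked by lines. Ttr lies at the far right at 3.43, and the median of all genes is 0.138.

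The level also differed between the batches. Fitted with the group as a covariate, 9 of the 10 genes were lower in the second batch (edgeR quasi-likelihood test, adjusted p under 0.05), where 24.3% of genes tested were lower and 22% higher. The log2 difference was -1.98 for Otx2 (SE 0.53, adjusted p = 0.00304) and -1.45 for Sostdc1 (SE 0.29, adjusted p = 0.000167), with the other called genes between. Ttr, at -1.83 (SE 0.77), missed the threshold with an adjusted p of 0.0508. It passed with a filter at a mean of 100 counts, where 28.4% of genes tested were lower and 26% higher. With DESeq2 Folr1 no longer passed either, which left 8 of 10 where 23.4% of genes were lower and 22.8% higher. The batch is a cohort of mice with its own count table, and what in it moved with these genes was not tested.

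The genes rose and fell together from mouse to mouse. Pearson's r of log2 CPM with Ttr was computed with batch means removed, and p came from 100000 permutations within batches, adjusted over 16265 genes. Over the 28 mice, 9 of 9 genes had a positive r with adjusted p under 0.05, against 2.59% of genes tested with a positive call and 0.32% with a negative call. The median r over all genes tested was -0.02. Slc4a5 had the highest r of any gene, 0.965 (Spearman's rho 0.969, permutation p = 1e-05, adjusted p = 0.00141). A p of 1e-05 is the smallest these permutations can give. Folr1 had r = 0.953 and Otx2 r = 0.951, with F5 at 0.908, Aqp1 at 0.907, Kl at 0.848, Clic6 at 0.787 and Prlr at 0.739. The lowest was Sostdc1, at r = 0.674 (rho 0.813, adjusted permutation p = 0.00615).

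The 5 second-batch mice under 1000 Ttr counts stood apart from the rest, so r was also taken within sets of mice. In the 11 mice of the first batch it ran from 0.903 for Prlr to 0.99 for Kl and Folr1. In the 17 mice of the second batch it ran from 0.704 for Sostdc1 to 0.968 for Slc4a5. In the 12 second-batch mice that remained without those 5 it ran from 0.94 for Prlr to 0.996 for Otx2. Without the 2 mice farthest from the median of Ttr, Chronic 6 and Chronic 3, it ran from 0.729 for Prlr to 0.987 for Slc4a5. In the first batch alone 9 of the 9 genes passed after adjustment, where 3.01% of genes tested passed with a positive r. In the second batch alone 8 of the 9 passed after adjustment, where 0.836% of genes tested passed with a positive r. Sostdc1 did not (permutation p = 0.00183 before adjustment).

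**Figure D3:**
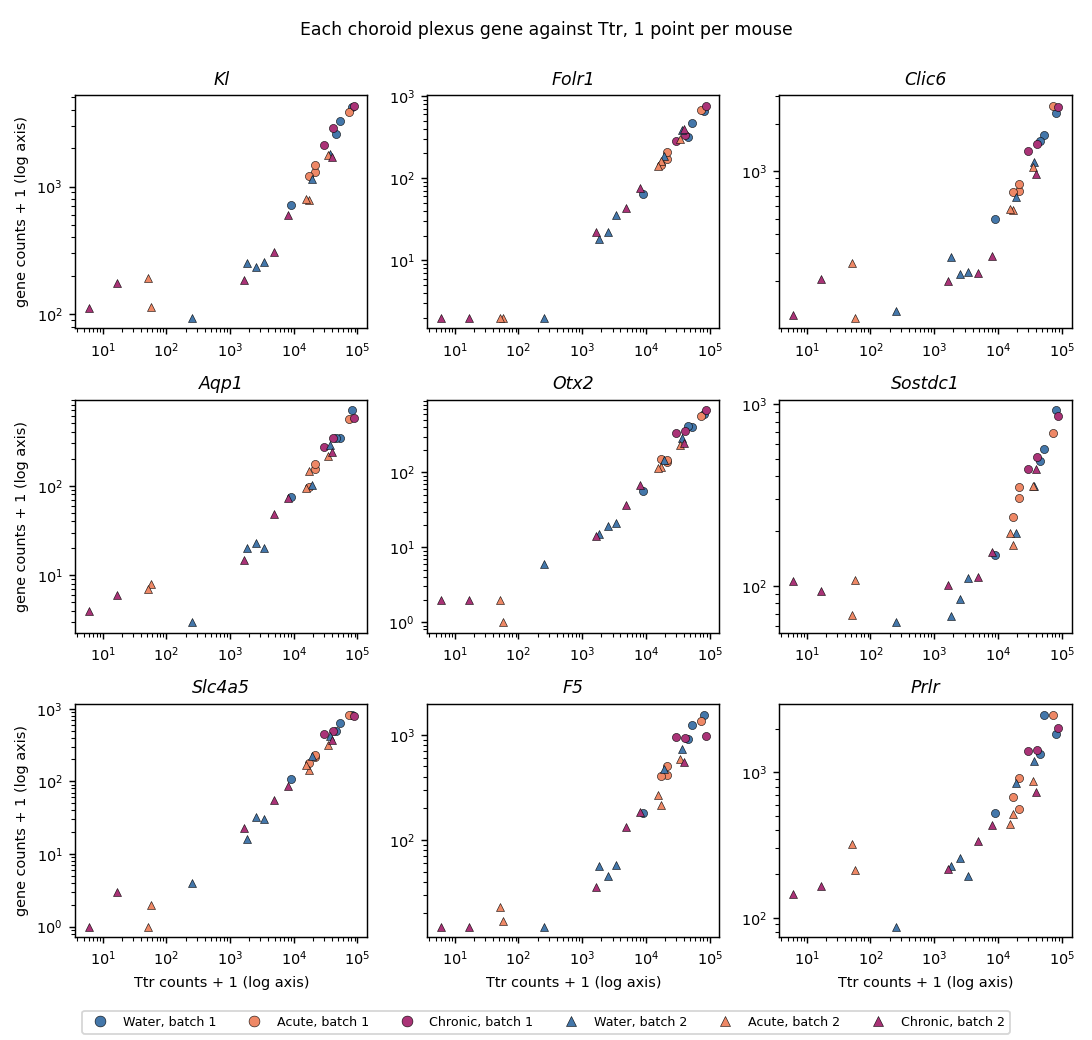
Counts plus 1 of each gene against counts plus 1 of Ttr (both log axes), 1 point per mouse, coloured by group and shaped by batch. Slc4a5, Otx2 and Folr1 fall with Ttr down to 2 counts or fewer, while Kl, Clic6, Sostdc1 and Prlr level off at 62 counts or more.

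The proportions to Ttr were close in the batches for some of the genes and looser for others. The median ratio of Ttr to Otx2 counts was 131.0 for first-batch mice and 133.8 for the 12 second-batch mice with at least 1000 Ttr counts. For Slc4a5 the ratio was 92.7 and 92.9, for Folr1 118.4 and 106.6, and for Aqp1 132.0 and 123.3. The SD of the log2 ratio of Ttr to Folr1 was 0.16 in the first batch, where the SDs of Ttr and Folr1 themselves were 1.02 and 1.07. In the second set that SD was 0.167 for Folr1 and 0.144 for Otx2. Kl had medians of 16.1 and 16.3, but its ratio ran from 7.38 to 23.5 in the second set, with an SD of the log2 ratio of 0.531 against 0.234 in the first batch. Prlr, Sostdc1 and Clic6 were looser there, with SDs of the log2 ratio of 0.93, 0.923 and 0.859, and their median ratios were 29.1 and 20.5 for Prlr, 81.1 and 64.9 for Sostdc1, and 28.4 and 27.2 for Clic6. F5 left the common line in Chronic mouse 39, where Ttr had 88542 counts and F5 973, against 1553 counts of F5 at 81334 of Ttr in Water mouse 42.

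The 10 other genes most like Ttr by r over the 28 mice were 1500015O10Rik (0.956), Mfrp (0.954), Kcnj13 (0.954), Kcne2 (0.946), Cldn2 (0.94), Calml4 (0.94), Prr32 (0.93), Wfdc2 (0.912), Lbp (0.906) and 2900040C04Rik (0.901). Of these, 1500015O10Rik, Kcnj13 (a potassium channel), Kcne2 (a potassium channel subunit), Cldn2 (a tight junction claudin), Calml4, Prr32 and Lbp also stood on lists of choroid plexus genes.

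Other genes of the choroid plexus covaried with Ttr by the same test. Of 11 transport genes tested, 10 did, among them Atp2b3 (a calcium pump, r = 0.615), Slc12a2 (the sodium potassium chloride cotransporter, r = 0.531) and Slc4a2 (an anion exchanger, r = 0.691), and Slc5a5, the iodide symporter, had r = 0.07. All 7 junction and keratin genes did, with Spint2 at 0.634, Cldn1 at 0.768 and Cldn2 as above. Of 10 genes for secreted proteins and enzymes, 9 did, among them Enpp2 (autotaxin, r = 0.837, 107.1 to 2245.7 CPM), Ace (r = 0.732) and Car12 (a carbonic anhydrase, r = 0.718), and Trh, the precursor of thyrotropin-releasing hormone, had r = 0.239. All 10 on the list of transcription factors and others did, with Cab39l at 0.669, Tmem72 at 0.797 and Sulf1 at 0.663.

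Genes of neighbouring cell types were read in the same way. Of 10 ependymal genes, the ciliated lining of the ventricles, 6 covaried, with Cfap126 highest at r = 0.802 and Foxj1, the regulator of motile cilia, at 0.699. Of 12 genes of meningeal and stromal fibroblasts, 5 did, namely Dcn (decorin, r = 0.78), Igf2 (r = 0.773), Ogn (r = 0.729), Islr (r = 0.575) and Slc6a20a (r = 0.565). The summed level of the ependymal list ran from 22.5 to 61.6 CPM over first-batch mice and from 10.4 to 37.8 CPM over second-batch mice. That of the fibroblast list ran from 100.4 to 313.0 and from 53.9 to 178.4 CPM, with Igf2 alone at 18.3 to 214.9 CPM. Of the 7 that did not pass, Lum (lumican) was highest at r = 0.534 (adjusted permutation p = 0.0701), followed by the collagen genes Col1a1 at 0.363 (3.97 to 8.33 CPM) and Col1a2 at 0.252 and by Fmod (fibromodulin) at 0.235. Col3a1 and Slc6a13 had -0.01 and Aldh1a2 -0.05. Of 9 endothelial, 5 blood and 3 border macrophage genes, 0 passed, near the background of 2.59% of genes tested. The highest endothelial values were 0.561 for Plvap (adjusted permutation p = 0.127) and 0.54 for Tek (adjusted permutation p = 0.0824), and Flt1 had 0.07, Hba-a2 0.163 and Mrc1 -0.15. The endothelial sum stayed between 184.3 and 229.3 CPM over all mice.

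Regional neuron genes were read against the same 2.59% of genes tested, beside which a count of 0 in lists this short is near the background. Of 6 central amygdala genes 0 passed, with r from -0.40 for Crh to -0.09 for Sst, and of 5 basolateral and pallial genes 0 passed, with Slc17a7 at 0.108. Of 6 hippocampal genes 2 passed, Dsp (desmoplakin, a desmosome protein, r = 0.857) and C1ql2 (r = 0.627). All 6 striatal genes had a negative r, from -0.37 for Adora2a to -0.27 for Ppp1r1b, and none passed. Of 10 family relatives of the choroid plexus genes, 1 passed, Slc4a10 (a bicarbonate transporter, r = 0.564), while Aqp4, the water channel of astrocytes, had r = 0.01 and Clic4 -0.17. None of the genes on these lists had a negative call.

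**Figure D4:**
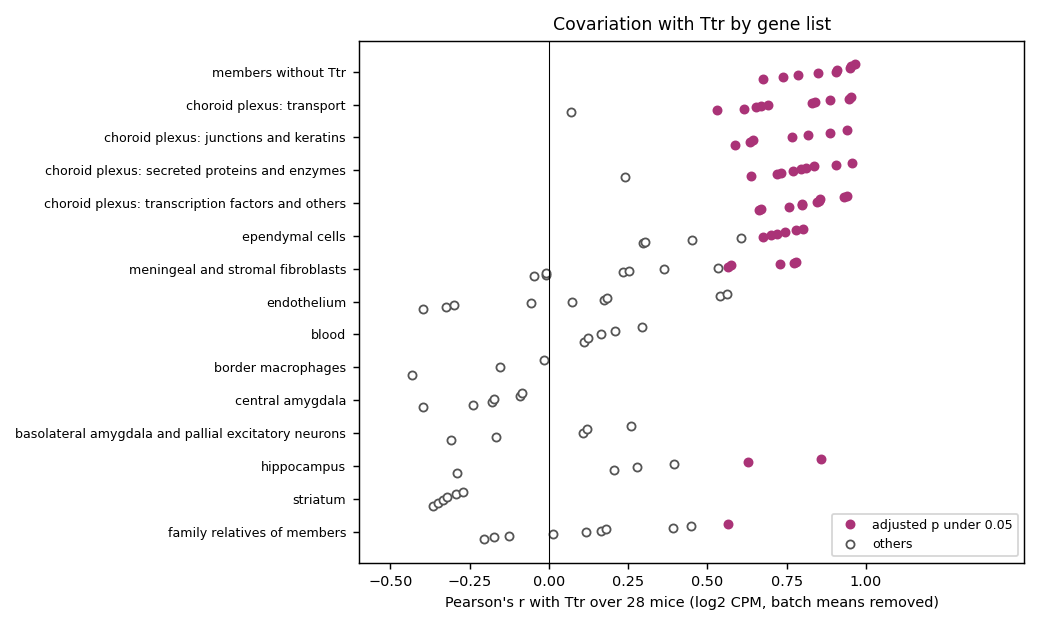
Pearson's r with Ttr over 28 mice for each listed gene, by list, filled where the adjusted permutation p was under 0.05. The choroid plexus lists lie mostly above 0.5, and the endothelial, blood, border macrophage, amygdala and striatal lists hold no filled point, where 2.59% of genes tested had a positive call.

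Drinking was compared in a model with batch as a covariate over all 28 mice. No difference between drinking groups passed the test for any of the 10 genes, whether after a single access to alcohol or a month of access. Between Acute and Water mice 0 of 10 were called, where 0% of genes tested were called, and 0 of 10 had an unadjusted p under 0.05, where 9.52% of genes tested did. Between Chronic and Water mice 0 of 10 were called and 0 of 10 had an unadjusted p under 0.05, against 0.0184% and 10.5% of genes tested. Between Chronic and Acute mice the counts were again 0 and 0, against 0% and 4.44%. Because the 10 genes covaried, these counts do not rest on 10 independent tests. limma-voom also called 0 of the 10 in each comparison, and so did DESeq2, which gave no adjusted p for Aqp1 and Otx2 in Chronic against Water.

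Ttr averaged 1183.8 ± 1252.5 CPM in Water mice (SD, n = 10), 1042.4 ± 971.5 CPM in Acute mice and 1081.5 ± 1315.2 CPM in Chronic mice (n = 9 each). Its log2 fold change was 0.01 in Acute against Water (95% interval -1.88 to 1.89, edgeR adjusted p = 0.998), -0.12 in Chronic against Water (-2.0 to 1.76, edgeR adjusted p = 0.976) and -0.13 in Chronic against Acute (-2.06 to 1.81, edgeR adjusted p = 0.999). On log2 CPM with batch means removed, Acute lay -0.77 from Water (exact permutation p = 0.558) and Chronic -1.3 from Water (exact permutation p = 0.399), both two-sided within batches. In Acute mice 4 of 9 were above the Water mean on that scale, and in Chronic mice 4 of 9. Intervals this wide span a fold change of over 3 in either direction, so absence of a difference cannot be read from them for Ttr. They are not limits of detection, which were not computed.

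The narrowest interval belonged to Sostdc1, at -0.05 in Acute against Water (-0.79 to 0.68, edgeR adjusted p = 0.976) and 0.14 in Chronic against Water (-0.59 to 0.87, edgeR adjusted p = 0.926). Sostdc1 averaged 14 ± 12.5 CPM in Water, 12.9 ± 8.01 in Acute and 14.4 ± 11.7 CPM in Chronic mice. By edgeR, F5 had log2 fold changes of -0.30 in Acute (edgeR adjusted p = 0.906) and -0.36 in Chronic against Water (edgeR adjusted p = 0.876). Prlr had -0.21 and -0.29, Slc4a5 -0.25 and -0.20, and Otx2 -0.18 and -0.10. Kl had -0.09 and -0.14, Aqp1 -0.12 and -0.13, Folr1 -0.08 and -0.06, and Clic6 -0.04 and -0.18. In Chronic against Acute the 10 genes lay between -0.13 for Clic6 and Ttr and 0.19 for Sostdc1. The groups overlapped for each of the 10 genes. The median log2 fold change of the 10 was -0.105 in Acute and -0.132 in Chronic against Water, beside 0.00115 and 0.00221 over all genes tested, and the 2 comparisons share the Water mice.

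**Figure D5:**
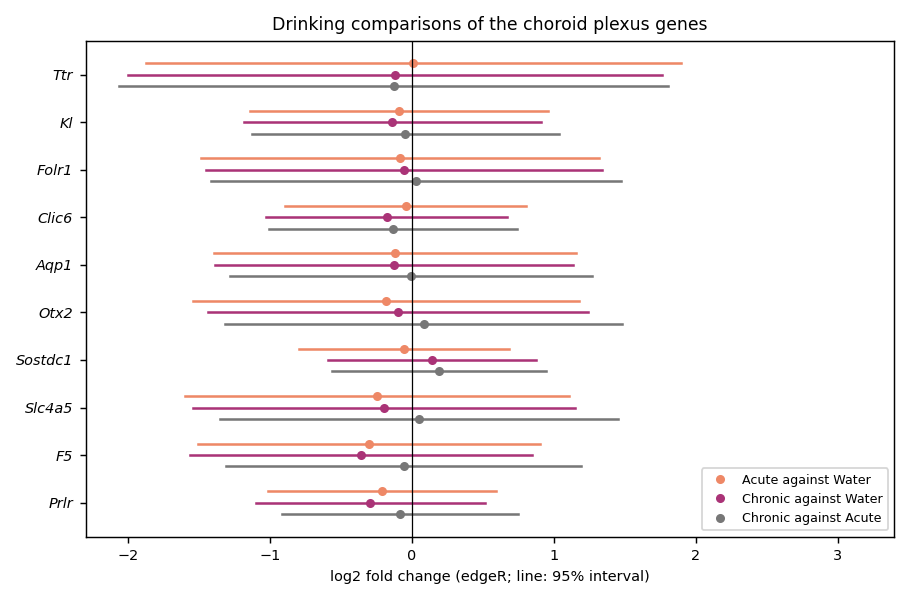
log2 fold change of each gene (points, edgeR) with its 95% interval (lines) in Acute against Water, Chronic against Water and Chronic against Acute. All intervals include 0, from the widest for Ttr to the narrowest for Sostdc1.

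Taken batch by batch, the comparisons of Acute with Water pointed different ways. In the first batch the log2 fold changes of the 10 genes lay between -0.61 for Otx2 and -0.35 for Clic6, and in the second between -0.04 for F5 and 0.36 for Ttr. Chronic against Water lay between -0.08 for F5 and 0.26 for Otx2 in the first batch and between -0.60 for F5 and 0.17 for Sostdc1 in the second. Chronic against Acute was positive for all 10 genes in the first batch, from 0.47 for Prlr to 0.87 for Otx2, and negative for all 10 in the second, from -0.13 for Sostdc1 to -0.67 for Clic6. None of these was called, and since the 10 genes rose and fell together, their shared signs are not 10 independent results. The difference between the batches was tested for the effects against Water and not for Chronic against Acute, and 0 of 10 genes passed for the Acute effect, where 0% of genes tested did (4.13% at an unadjusted p under 0.05), and 0 of 10 for the Chronic effect, where 0.00615% did (6.15%). For Ttr that difference was 0.90 in Acute (edgeR adjusted p = 0.999) and -0.39 in Chronic (edgeR adjusted p = 0.979).

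The other lists gave no drinking call by edgeR either. Of their 110 genes tested, 4 had an unadjusted p under 0.05 in Acute against Water, 5 in Chronic against Water and 3 in Chronic against Acute, where 9.52%, 10.5% and 4.44% of all genes tested did. Slc4a7, a relative of Slc4a5, was among these in both comparisons against Water. Its log2 fold change was -0.19 in Acute and -0.23 in Chronic mice (edgeR adjusted p = 0.384 and 0.181). The authors count Slc4a7 among the genes with an adjusted p under 0.05 in Chronic mice, with ComBat-seq and DESeq2. The sum of the 10 choroid plexus genes, on average mostly Ttr, had a median of 863.9 CPM in Water, 1012.4 CPM in Acute and 511.2 CPM in Chronic mice. These medians pool batches of different level, of which the groups hold different shares. By batch and in the same order, they were 2720.2, 1186.9 and 2219.0 CPM in the first and 200.2, 916.8 and 213.2 CPM in the second. The range of the sum over both batches was 33.3 to 4235.3, 32.0 to 3781.4 and 26.1 to 4498.4 CPM in that order, so each group held nearly the whole range.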

How the data were processed

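Total RNA of each punch was enriched for mRNA, depleted of rRNA and sequenced. The authors quantified reads with Salmon 0.14.1 on GRCm38 transcripts after FastQC 0.11.8, imported them with tximport and deposited gene counts as whole numbers in a table per batch, not adjusted for batch. Strand use in counting was not given in the sources used here. Groups and batches were read from the sample titles. The 10 genes, the lists and the tests were chosen with earlier results of these data known.

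Tables were joined on gene identifiers and symbols taken from GENCODE M21. Genes averaging 10 counts or more were kept. The main test was edgeR 4.0.16 (quasi-likelihood, TMM, batch as covariate, R 4.3.3) with Benjamini-Hochberg adjustment over all 16266 genes and a threshold of 0.05, where "called" means an adjusted p under 0.05. Intervals are 95% intervals from the fitted SE. Covariation and exact tests ran on log2 CPM (prior count 2) in Python 3.11.15. Genes other than the 10 were named where they were among the 10 highest r, or the 3 most abundant or highest in r of their list. Genes named beyond that rule, chosen after their values were seen, were Slc5a5, Trh, Ogn, Islr, Lum, Fmod, Col1a1, Col1a2, Col3a1, Slc6a13, Aldh1a2, Tek, Crh and Slc4a7. DESeq2 1.42.0, limma 3.58.1 voom and ComBat-seq (sva 3.50.0) served as alternatives. No pair of mice of 1 group and batch had counts that agreed within sampling noise. Tests were checked on simulated counts. P-values rest on 1 library per mouse.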

Additional observations from a re-analysis of the deposited data

Results flagged for a closer look

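In 4 of 50 sets of 4 to 6 mice, each 1 gene in 1 group and batch, the highest or lowest mouse stood apart by Dixon's ratio of its gap to the range, both taken on log2 CPM. Counts are given beside each ratio for orientation, and the ratio does not follow from them. Chance gives about 1 in 20. Clic6 was highest in Acute mouse 33 of the first batch (ratio 0.879, 2594 counts against 733 to 825 in the other Acute mice). Otx2 was highest in the same mouse (ratio 0.917, 563 counts against 136 to 152). Otx2 was lowest in Water mouse 41 of the first batch (ratio 0.835, 55 counts against 402 to 608). Sostdc1 was highest in Chronic mouse 1 of the second batch (ratio 0.672, 439 counts against 93 to 152). Acute mouse 33 and Water mouse 41 were also the extreme mice of their groups and batch for Ttr, at 73631 and 8974 counts.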

How the results depend on the processing

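In each comparison of drinking groups none of the 10 genes that had an adjusted p was called under the alternatives run, namely RLE normalization, no filter, a filter at a mean of 100 counts, each batch alone, DESeq2, ComBat-seq with DESeq2, limma-voom, exact permutation, robust dispersions (chosen after seeing the data) and leaving out each mouse. In Chronic against Water, ComBat-seq with DESeq2 gave an adjusted p for 4 of the 10 genes and DESeq2 for 8 of the 10, so the others could not be called there. The lowest adjusted p of any of them was 0.66, 0.706 and 0.924 in Acute against Water, Chronic against Water and Chronic against Acute, and the lowest unadjusted p was 0.248, 0.245 and 0.157. Signs and sizes of these uncalled values were not stable. Of values that kept their sign, with limma-voom Ttr was -1.21 in Chronic against Water (-0.12 as reported) and -0.55 in Chronic against Acute (-0.13), Otx2 -0.56 and Slc4a5 -0.65 in Acute against Water (-0.18 and -0.25), and Folr1 0.62, Otx2 0.97 and Slc4a5 0.85 in Chronic against Acute (0.0285, 0.0836 and 0.05). With the replicate block Ttr was -0.54 in Chronic against Water and -0.46 in Chronic against Acute, and as a difference of mean log2 CPM -1.3 and -0.53. Within single batches the shift from the reported values reached 0.546, 0.365 and 0.789 in the first batch and 0.444, 0.336 and 0.723 in the second in Acute against Water, Chronic against Water and Chronic against Acute. In Acute against Water, log2 values of opposite sign to those reported were found with the replicate number as a block Ttr -0.0823, and in the first batch alone Ttr -0.54, and in the second batch alone Kl 0.22, Folr1 0.18, Clic6 0.20, Aqp1 0.33, Otx2 0.20, Sostdc1 0.30, Slc4a5 0.0622, Prlr 0.00789, and with ComBat-seq and DESeq2 Ttr -0.0355, and with limma-voom Ttr -0.66, and as differences of mean log2 CPM Ttr -0.77, Aqp1 0.0395, Sostdc1 0.0784, Prlr 0.00574. In Chronic against Water, log2 values of opposite sign to those reported were found in the first batch alone Ttr 0.12, Kl 0.14, Folr1 0.23, Clic6 0.19, Aqp1 0.0785, Otx2 0.26, Slc4a5 0.11, and with limma-voom Kl 0.10, Folr1 0.31, Aqp1 0.30, Otx2 0.41, Slc4a5 0.21, F5 0.17, Prlr 0.0236. In Chronic against Acute, log2 values of opposite sign to those reported were found with no filter Aqp1 0.00539, and with the replicate number as a block Kl 0.0619, Aqp1 0.12, F5 0.10, Prlr 0.0131, and in the first batch alone Ttr 0.66, Kl 0.64, Clic6 0.54, Aqp1 0.68, F5 0.49, Prlr 0.47, and in the second batch alone Folr1 -0.47, Otx2 -0.64, Sostdc1 -0.13, Slc4a5 -0.53, and with DESeq2 Folr1 -0.0486, Otx2 -0.0537, Slc4a5 -0.0572, and with ComBat-seq and DESeq2 Folr1 -0.0282, Otx2 -0.00602, Slc4a5 -0.00407, and with limma-voom Kl 0.24, Clic6 0.20, Aqp1 0.67, F5 0.47, Prlr 0.26, and as differences of mean log2 CPM Folr1 -0.0455. Leaving out 1 mouse in turn, the log2 values ran in Acute against Water Ttr -0.47 to 0.52, Kl -0.48 to 0.24, Folr1 -0.45 to 0.37, Clic6 -0.32 to 0.22, Aqp1 -0.46 to 0.34, Otx2 -0.58 to 0.24, Sostdc1 -0.29 to 0.14, Slc4a5 -0.62 to 0.18, F5 -0.70 to 0.0683, Prlr -0.42 to 0.057, and in Chronic against Water Ttr -0.88 to 0.37, Kl -0.50 to 0.18, Folr1 -0.61 to 0.40, Clic6 -0.44 to 0.0841, Aqp1 -0.51 to 0.32, Otx2 -0.50 to 0.31, Sostdc1 -0.12 to 0.34, Slc4a5 -0.65 to 0.22, F5 -0.71 to 0.00975, Prlr -0.45 to -0.0268, and in Chronic against Acute Ttr -0.93 to 0.35, Kl -0.42 to 0.34, Folr1 -0.54 to 0.40, Clic6 -0.40 to 0.14, Aqp1 -0.40 to 0.34, Otx2 -0.33 to 0.48, Sostdc1 -0.0727 to 0.45, Slc4a5 -0.41 to 0.42, F5 -0.41 to 0.34, Prlr -0.24 to 0.13. Over all genes, DESeq2 called 8 and 36 genes in Acute and Chronic against Water, ComBat-seq with DESeq2 called 30 and 98, and limma-voom 2 and 2, beside 0 and 3 by edgeR. Same-numbered mice of the second batch were not more alike than others, with 4 of 16 same-numbered pairs correlated above 0.1 (median r = -0.008). Of 80 pairs with other numbers, 26 were above 0.1 (median r = 0.0232). Whether the numbers stood for a pairing in the experiment was not tested by this. With the number as a replicate block, 0 of 10 genes were called in each comparison, and 0 and 3 genes over all genes in Acute and Chronic against Water. It changed no call of the 10 genes, and the signs and sizes it changed most are given above. None of the 10 genes was among the 100 largest SDs in the first batch alone, 0 against 6 in both batches and 7 in the second batch alone. In the second batch alone, Sostdc1 no longer passed for covariation (8 of 9 did, beside 0.836% of genes tested). For the batch difference, Ttr passed with a filter at a mean of 100 counts, giving 10 of 10, and 8 of 10 passed with DESeq2, all but Ttr and Folr1, where 28.4% and 23.4% of genes tested were lower. The 12-mouse set of the second batch was chosen after seeing the data. Depth limits values in the mice with few Ttr counts, where Folr1, Otx2 and Slc4a5 rest on 0 to 3 counts, or 5 for Otx2 in Water mouse 3.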
